A study of Camponotus floridanus with 15 samples.

Results

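In the carpenter ant *Camponotus floridanus*, 70 of 18620 annotated genes were high in late pupae of both worker castes and at least 1.5 log2 units lower in every other stage sampled. They were chosen from their own values. To put the libraries on 1 scale, every gene above 0 in all 15 of them (9990 genes) was set against its own geometric mean, and a library was divided by the median of these ratios. A group mean m of log2(value + 1) was then taken. A gene was kept when m of late pupa minor and m of late pupa major differed by under 1.5 and both lay at least 1.5 above m of each of the other 6 groups. The difference between late pupae and the rest, and the likeness of the castes, are therefore given as a description, with no test. The table also held 359 genes with the ID prefix XLOC, and 0 of them met the same thresholds.

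The pupa of an ant does not feed, and during this stage the adult body is built. Towards the end of the pupal stage insects secrete the cuticle of the adult, which then hardens and darkens, while muscles, eyes and other adult organs are completed. Genes switched on strongly and briefly at this time in insects include those for structural proteins of the cuticle. None of the 70 IDs is paired with a gene name in the files (0 matched the 14020 RefSeq genes of this species), so no role is given for any of them.

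The data are RPKM values (reads scaled by the length of the gene and by the size of the library) from poly(A) RNA of whole bodies, in strand-specific libraries. The 8 groups are embryo, larva of instar 1, larva of instar 4, early pupa, late pupa (minor and major kept apart), minor and male. Minors are the small workers and majors the large ones. The male group has 1 library and each of the other groups has 2. All ants were kept in the laboratory on one diet, and the labels name no mutation, treatment, colony or pupal age, nor the number of animals behind a library. Nothing in the labels says that replicates came from separate colonies, and a p-value here therefore covers the spread between libraries only, which may be technical. In whole bodies, fewer cells of a type and less RNA per cell cannot be told apart. The tissue label could not be checked against markers, since the IDs have no names.

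Library divisors recovered from the values ran from 16740000 to 34150000 reads. The scaling factors ran from 0.498 to 2.332, and those of late pupae from 0.58 to 0.786. Under a rescaled value of 1 lay 27 to 42 of the 70 genes in the 11 libraries outside late pupae and 0 to 2 in the 4 late pupa libraries. At this depth 3 reads on a gene of 1000 nt correspond to 0.0879 to 0.179 RPKM, a floor that covers counting error only. Between 0 and 11 of the genes were listed at 0 in a library outside late pupae, with the most in instar 4 larvae, and none was at 0 in late pupae.

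In the 2 late pupa minor libraries 29.1% and 36.5% of the RPKM total belonged to the 70 genes. In late pupa major their share was 41.8% and 37.2%. Across the 11 other libraries it lay between 0.054% and 0.272%, with the highest in early pupa replicate 2. Every late pupa library thus stood far above every other library, but the rule chose the genes on this contrast. Other sets chosen in a like way also took large shares in their own group. The 51 genes at least 1.5 log2 units higher in early pupae than in any other group took 42.3% and 38.0% there. The 154 genes likewise highest in adult minors took 15.9% and 20.3% there. RPKM is divided by gene length, so these are shares of a per-length level and not of reads. Most of the share came from few genes: the 6 with the highest late pupa level took 26.9% and 31.1% in minor and 37.0% and 32.3% in major.

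**Figure D1:**
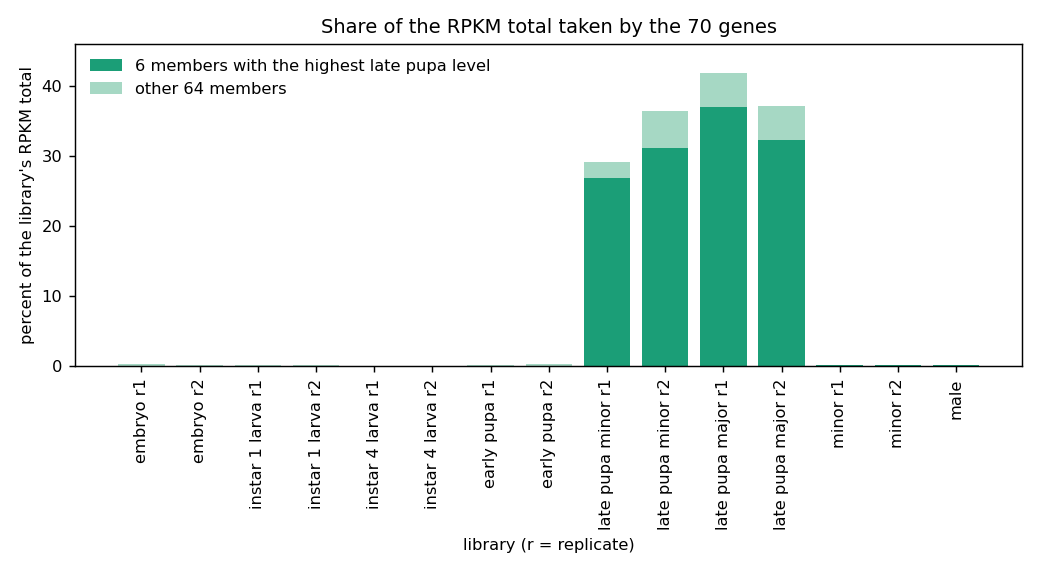
Percent of each library's RPKM total taken by the 70 genes, with the 6 highest in dark green and the other 64 stacked in light green. The 4 late pupa libraries stand between 29.1% and 41.8%, and the 11 others are all at or under 0.272%.

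Levels below are rescaled RPKM. The late pupa mean over the 4 libraries ran from 4.36 to 64003 with a median of 76.6. It was at least 1000 in 12 genes, under 100 in 37 and under 10 in 6. The margin, the distance of the lower late pupa caste from the next highest group, had a median of 2.65 log2 units and ran from 1.52 to 10.91. It was at least 4 in 23 genes and under 2 in 22.

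**Figure D2:**
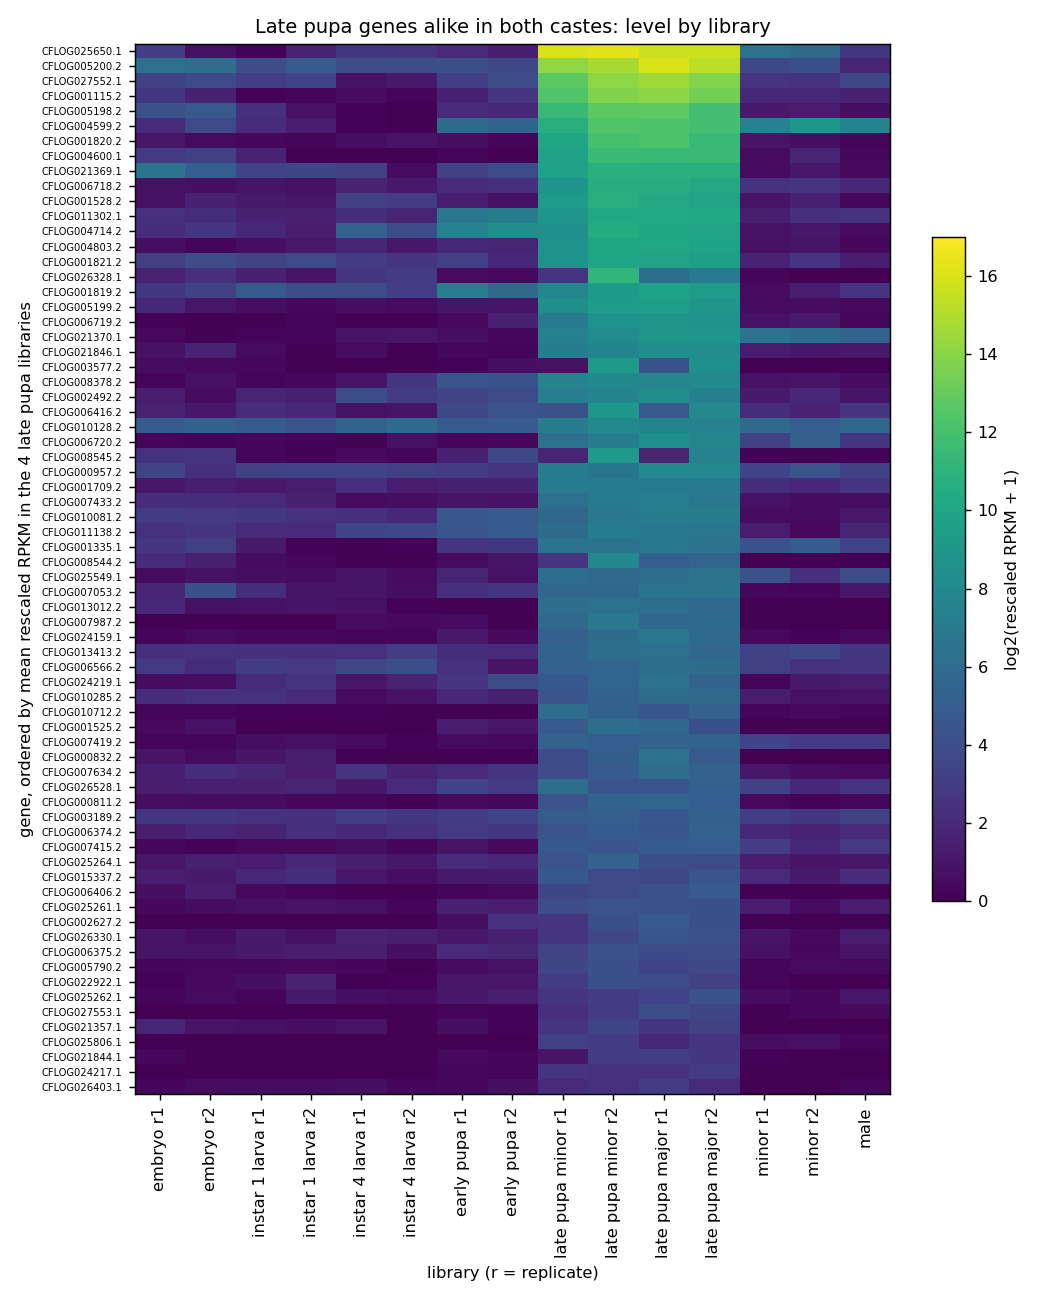
Level of each of the 70 genes (rows, ordered by mean rescaled RPKM in the 4 late pupa libraries) in each of the 15 libraries (columns), as log2(rescaled RPKM + 1) in colour. The 4 late pupa columns are brightest in the upper rows, while 26 genes reach 10 or more in at least 1 other library.

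CFLOG025650.1 had the highest level of the 70. It stood at 70563 and 78129 in late pupa minor and at 54454 and 52865 in late pupa major. In the 11 other libraries it ran from 0.13 in instar 1 larva replicate 1 to 85.1 in minor replicate 1. Both minor libraries lay above both major libraries. This single gene of 342 nt took 17.9% and 16.3% of the RPKM total in late pupa minor and 11.3% and 13.5% in major, and 245729 to 497419 reads fell on it per late pupa library.

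CFLOG005200.2, the next in level, had the opposite order of castes. Its level was 18792 and 27653 in late pupa minor and 70853 and 40188 in late pupa major. Outside late pupae it was highest in embryos, at 76.0 and 65.8, and lowest in the male, at 2.46. In late pupa major replicate 1 it exceeded CFLOG025650.1, and in the other 3 late pupa libraries it did not.

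The next 4 genes in level shared 1 pattern among the late pupae: minor replicate 1 was the lowest of the 4 libraries. CFLOG027552.1 stood at 6691 and 17440 in minor and at 24371 and 15006 in major. CFLOG001115.2 stood at 5442 and 13739 in minor and at 16922 and 10722 in major. In both genes the castes overlapped, since minor replicate 2 lay above major replicate 2. CFLOG005198.2 had 2833 and 6761 in minor and 7208 and 3921 in major. CFLOG004599.2 had 1601 and 5448 in minor and 4854 and 3943 in major. The castes overlapped in these genes as well.

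**Figure D3:**
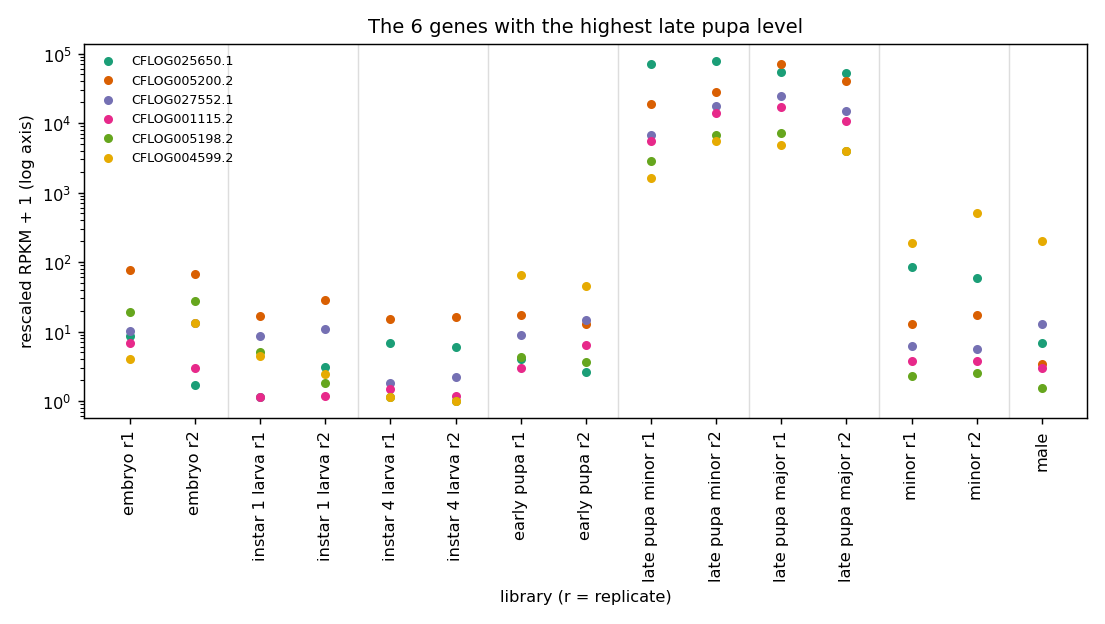
Rescaled RPKM + 1 (log axis) of the 6 genes with the highest late pupa level, 1 point per gene and library, with grey lines between groups. All 6 genes are above 1000 in each late pupa library, and CFLOG004599.2 alone of the 6 is above 100 in any other library (minor and male).

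The largest margins belonged to CFLOG001115.2 (10.91 log2 units), CFLOG001820.2 (10.22) and CFLOG027552.1 (9.72). CFLOG001820.2 was near 0 wherever it was not high. It had 1016 and 4187 in late pupa minor and 4644 and 2777 in late pupa major. Outside late pupae it ran from 0.149 in the male to 1.08 in embryo replicate 1.

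At the threshold the values were small or the contrast was slight. CFLOG025806.1 was just inside with a margin of 1.52, at 8.34 and 6.91 in late pupa minor and 2.77 and 4.85 in late pupa major. CFLOG026330.1 was the next with a margin of 1.55, at 5.06 and 11.4 in minor and 22.4 and 17.9 in major. Just outside lay CFLOG007296.2 with a margin of 1.49 and CFLOG003397.2 with 1.48. In the other condition of the rule, CFLOG005610.2 (major minus minor 1.55) and CFLOG022096.1 (−1.57) lay just outside. In all, 23 genes met the margin with castes at least 1.5 apart, 21 of them higher in major and 2 higher in minor, and these are not among the 70.

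How far the genes were limited to late pupae varied. Of the 70, 10 were under 1 in all 11 other libraries, 44 were under 10 in all of them, and 26 reached 10 or more in at least 1. In 67 genes the lowest late pupa library lay above every other library, which held for 2.72% of the 10619 genes tested. The rule used this contrast, so nothing is read from that share. The 3 exceptions, CFLOG006416.2, CFLOG008545.2 and CFLOG026328.1, were among the genes whose late pupa replicates lay far apart. CFLOG010128.2, singled out after its values were seen, was present everywhere: it had 145.0 and 284.6 in late pupa minor, 206.3 and 186.4 in major, and 20.9 to 61.5 in the other 11 libraries. For it and others with a small margin, "late pupa-high" describes the data better than "late pupa-limited".

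The next highest group was early pupa in 25 genes, embryo in 14, minor in 13, male in 8, instar 1 larva in 5 and instar 4 larva in 5. The genes with the highest level in early pupae were CFLOG004714.2 and CFLOG011302.1, whose early pupa mean was 25.4% and 11.8% of the late pupa mean. In adult minors the highest levels were those of CFLOG004599.2 and CFLOG021370.1, at 8.72% and 20.6% of the late pupa mean. CFLOG025650.1 kept 0.112% of its late pupa mean in minors.

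Between the castes, late pupa major was on the whole the higher. The median of major minus minor was 0.42 log2 units over the 70 genes and 0.0 over all genes tested. By group means 52 genes were higher in major and 18 in minor, beside 50.0% of all genes tested that were higher in major. The rule bounds this difference, which ran from −0.92 to 1.41. Both major libraries lay above both minor libraries in 20 genes (26.0% of all genes tested), both lay below in 3 (25.4%), and in 47 the castes overlapped.

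The shift between the castes rested on 1 library. Without late pupa minor replicate 1 the median was −0.01, with 34 genes higher in major and 36 in minor. Without late pupa minor replicate 2 it was 0.93, with 59 higher in major. Leaving out major replicate 1 or 2 gave 0.37 or 0.6.

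CFLOG006720.2 and CFLOG003577.2 were the highest in major relative to minor, both by 1.41 log2 units. CFLOG006720.2 had 74.4 and 145.8 in minor and 366.0 and 211.8 in major, with no overlap. CFLOG003577.2 had 0.731 and 607.6 in minor and 18.9 and 374.7 in major, and its replicates differed more than its castes. Lowest in major were CFLOG025264.1, at −0.92 log2 units with 19.6 and 41.7 in minor and 15.8 and 13.6 in major, and CFLOG025806.1, at −0.87. Caste and pupal age cannot be told apart here, since the labels give no age within the late pupa.

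The late pupa replicates differed by more in these genes than in genes at large. The median absolute difference between replicates was 0.91 log2 units in late pupa minor, against 0.35 over all genes tested. In late pupa major it was 0.48 against 0.28. In the other 5 groups with replicates it ran from 0.21 to 0.33 over the 70 genes and from 0.18 to 0.38 over all genes tested. The 70 genes were low there, with library medians of 0.545 to 1.93 rescaled RPKM, against 52.2 to 92.6 in late pupae. The log2(value + 1) scale shrinks differences between such low values, so nothing is read from the smaller spread outside late pupae.

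The direction of these differences was shared by most of the genes in late pupa minor and by fewer in late pupa major. In late pupa minor, 60 of 70 genes were higher in replicate 2 (50.1% of all genes tested), with a median of 0.87 log2 units. In late pupa major, 46 were higher in replicate 1 and 24 in replicate 2 (48.6% of all genes tested were higher in replicate 2), with a median of −0.16 for replicate 2 minus replicate 1. Of the 20 genes with the highest mean rescaled RPKM over the 4 late pupa libraries, 20 were higher in minor replicate 2 than in replicate 1, and 19 were higher in major replicate 1 than in replicate 2. The exception was CFLOG026328.1.

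Late pupa minor replicate 1 was the lowest of the 4 libraries in 52 of 70 genes (23.9% of all genes tested). The highest was major replicate 1 in 33, minor replicate 2 in 22, major replicate 2 in 11 and minor replicate 1 in 4. In other gene sets, too, late pupa minor replicate 1 was the highest or the lowest of the 4 libraries, while the order of the rest differed. The 51 genes at least 1.5 log2 units higher in early pupae than in any other group made up 3.13% of the RPKM total in late pupa minor replicate 1, against 0.478% in minor replicate 2 and 0.301% and 0.226% in major. The 154 genes likewise highest in adult minors made up 1.71%, against 0.859% and then 0.702% and 0.782%. The 23 late pupa genes with castes apart made up 0.993% and 2.82% in minor and 4.33% and 4.3% in major, though the castes' values chose them. The part of these differences in the results on the 70 genes was not tested.

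**Figure D4:**
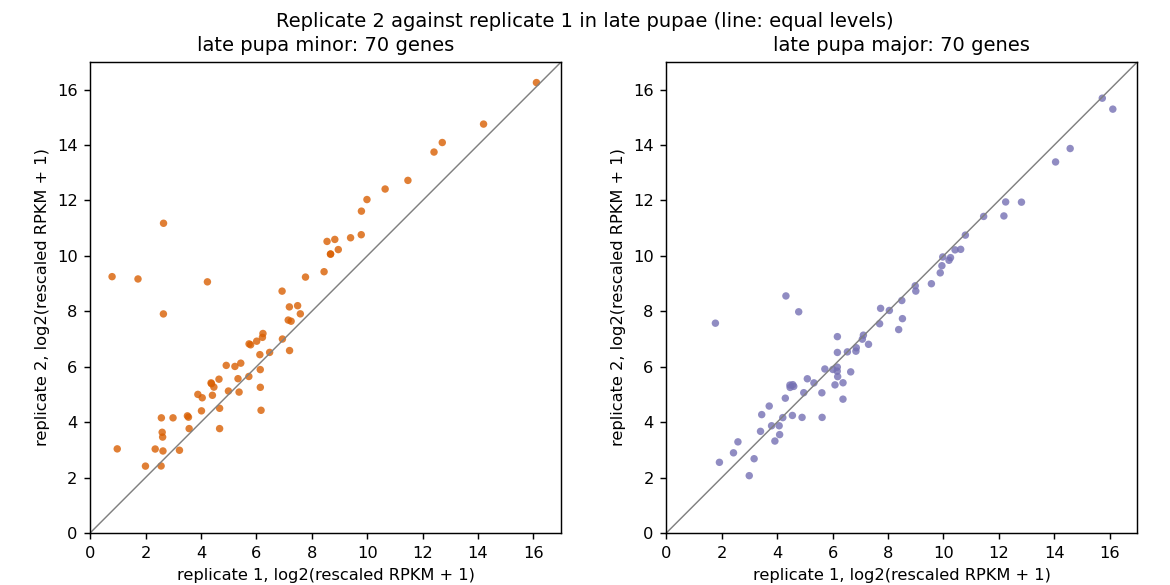
Replicate 2 against replicate 1 for the 70 genes in late pupa minor (left) and late pupa major (right), both axes in log2(rescaled RPKM + 1), with a line of equal levels. In minor 60 points lie above the line and in major 24, and 5 genes lie far above the line in minor.

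A group of 5 genes, chosen after their values were seen, was at least 4 log2 units higher in late pupa minor replicate 2 than in replicate 1. Over all genes tested there were 30 such genes. CFLOG026328.1 had 5.27 and 2313 in minor and 71.1 and 134.7 in major. CFLOG008545.2 had 2.31 and 573.4 in minor and 2.41 and 189.0 in major. CFLOG006416.2 had 17.8 and 533.4 in minor and 26.4 and 251.6 in major.

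CFLOG008544.2, whose ID number is next to that of CFLOG008545.2, had 5.25 and 238.5 in minor and 33.0 and 46.3 in major. The last of the 5 is CFLOG003577.2, given above. Replicate 2 was the higher in both castes in all 5. At least 3 log2 units higher in replicate 2 of both castes were 3 of the 70 genes, 6 of all genes tested, while 1 gene tested was that much higher in replicate 1 of both.

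The likeness of the late pupa libraries over the 70 genes differed with and without these 5. As a description across genes, which are not independent replicates, Pearson's r of log2 levels was 0.839 between the minor replicates and 0.943 between the major replicates. It was 0.948 between the replicates numbered 1 of the castes and 0.966 between those numbered 2. Between minor replicate 1 and major replicate 2 it was 0.903, and between minor replicate 2 and major replicate 1 it was 0.897. Each minor library was thus closer to either major library than to its own replicate, whatever the number. Over the other 65 genes r was 0.975 between the minor replicates and 0.987 between the major replicates, beside 0.958 and 0.982 for the libraries of the same number. For minor replicate 1 with major replicate 2 it was 0.976, and for minor replicate 2 with major replicate 1 it was 0.982. Over all genes tested r was 0.924 between the minor replicates and 0.961 between the major replicates. There it was 0.906 and 0.909 for the same number, and 0.891 and 0.94 for the pairs of unlike number.

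Comparisons among the groups outside late pupae were tested, since the rule sets only an upper bound there. Values were fitted with limma on log2(rescaled RPKM + 1) over the 10619 genes tested, and p-values were adjusted by Benjamini-Hochberg over all of them. The fit took 1 spread per gene from all 15 libraries, so each SE and p includes the spread between late pupa replicates. A gene with late pupa replicates far apart may differ without a call. CFLOG026328.1 had means of 6.38 in instar 4 larvae and 0.398 in early pupae, with an SE of 1.74 log2 units and no call. The bound itself depends on the late pupa level, and the 70 genes entered the test through the late pupa libraries, where they are high. Of them 10 were under 1 in every library of the groups compared here. Counts over the 70 genes are therefore printed beside those over all genes tested, and nothing is read from how they compare. Neighbouring comparisons share a group, and their values are given side by side only. Rescaling matters here: on the deposited scale the median difference over all genes tested was −1.02 log2 units from instar 1 to instar 4 larva, 0.3 from instar 4 larva to early pupa, −0.17 from early pupa to minor and 0.61 from minor to male, and after rescaling it was at most 0.03 in size. Counts on the deposited scale are given beside the rescaled ones.

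From instar 4 larva to early pupa, 14 of the 70 genes rose and 2 fell, which is 20.0% and 2.86%. Over all genes tested 8.85% rose and 10.3% fell. The median difference was 0.35 log2 units over the 70 genes and 0.03 over all. On the deposited scale 16 rose and 1 fell, beside 6.93% and 4.33% of the 10807 genes tested there. Without early pupa replicate 2 the number called was 9.

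CFLOG004599.2 rose the most, from 0.14 and 0 in instar 4 larvae to 63.1 and 44.6 in early pupae. The instar 4 values are 1 and 0 reads, so the fitted difference of 5.66 ± 0.64 log2 units (SE, limma adjusted p = 6e-05) depends on the pseudocount. CFLOG011302.1 rose from 3.59 and 2.42 to 103.3 and 148.4, a difference of 4.98 ± 0.39 (SE, limma adjusted p = 3e-06). Neither call was lost under any of the 18 alternative settings run. Those that left out a library of another group, dropped the filter or added a replicate block could change only the spread and p.

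In both genes the early pupa libraries lay far above those of instar 4 larvae. CFLOG006566.2 fell from 11.5 and 16.0 to 4.42 and 0.866, a difference of −2.20 ± 0.43 (SE, limma adjusted p = 0.0034, and up to 0.059 across the alternatives, the latter on the deposited scale). CFLOG001528.2 fell from 8.21 and 7.22 to 1.66 and 0.697, a difference of −2.03 ± 0.41 (SE, limma adjusted p = 0.0043, and up to 0.052, without early pupa replicate 2).

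Between early pupa and adult minor, the sampled stages on either side of the late pupa minors, 13 genes rose and 16 fell. No adult major was sampled, so the values do not cover the stage after the late pupa in majors. These are 18.6% and 22.9% of the 70, beside 23.9% and 21.1% of all genes tested. The median difference was −0.32 log2 units over the 70 genes and 0.0 over all. On the deposited scale 8 rose and 14 fell (13.1% and 15.1% of all genes tested). Without early pupa replicate 2 the number called was 17, and without minor replicate 2 it was 19.

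Some genes were present in early pupae and near 0 in adult minors. CFLOG004714.2 had 172.5 and 316.0 in early pupae and 0.742 and 1.11 in minors, a difference of −6.94 ± 0.58 log2 units (SE, limma adjusted p = 1.8e-06). CFLOG001819.2 had 162.1 and 57.7 in early pupae and 0.402 and 1.4 in minors, a difference of −5.74 ± 0.56 (SE, limma adjusted p = 6.1e-06).

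Others showed the reverse. CFLOG021370.1 had 0.632 and 0.281 in early pupae and 86.0 and 64.6 in minors, a difference of 5.71 ± 0.28 (SE, limma adjusted p = 2.7e-08). CFLOG025650.1, the gene with the highest late pupa level, had 3.05 and 1.63 in early pupae and 85.1 and 57.9 in minors, a difference of 4.45 ± 0.62 (SE, limma adjusted p = 9.8e-05). None of these 4 calls was lost under any of the 18 alternatives. Again, leaving out a library of another group, dropping the filter or adding a replicate block could change only the spread and p.

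**Figure D5:**
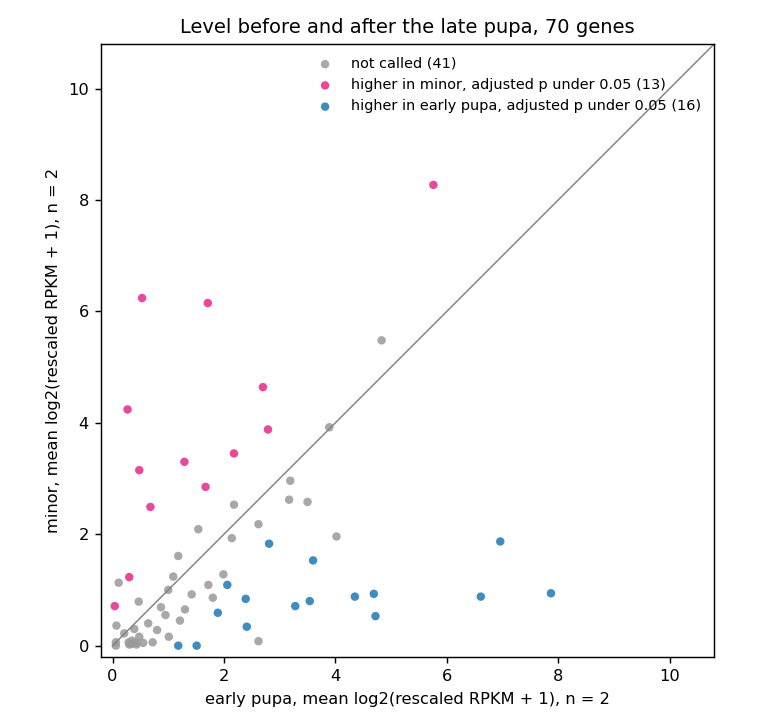
Mean log2(rescaled RPKM + 1) in adult minor against early pupa for the 70 genes (n = 2 libraries each), with a line of equal levels. The 13 genes called higher in minor (pink) and the 16 called higher in early pupa (blue) lie on opposite sides of the line, and the other 41 (grey) were not called.

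From instar 1 to instar 4 larva, 4 genes rose and 3 fell (5.17% and 2.68% of all genes tested), which is 5.71% and 4.29% of the 70. On the deposited scale 1 rose and 19 fell, where 1.38% of all genes tested rose and 49.7% fell. The number called was 2 without instar 1 larva replicate 1, 4 without instar 1 larva replicate 2, where all 4 fell, and 12 when the one or the other late pupa minor library was left out. Of those that rose, CFLOG004714.2 went from 2.91 and 1.43 to 39.9 and 14.9, by 3.05 ± 0.58 log2 units (SE, limma adjusted p = 0.0059, up to 0.068 across alternatives). CFLOG001528.2 went from 1.34 and 1.01 to 8.21 and 7.22, by 2.00 ± 0.41 (SE, limma adjusted p = 0.0096, up to 0.073). The other 2, CFLOG002492.2 and CFLOG011138.2, rose by 1.87 and 1.59.

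CFLOG027552.1 fell the most between the instars. It went from 7.7 and 9.72 to 0.793 and 1.2, a difference of −2.28 ± 0.42 (SE, limma adjusted p = 0.0049, up to 0.05 with no filter on low values). CFLOG010285.2 fell by 1.64 and CFLOG007433.2 by 1.25 on the log2 scale. Each of these 7 calls was lost under at least 1 alternative.

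From embryo to instar 1 larva, a comparison added after 14 genes were seen to have embryo as their next highest group, 0 genes rose and 3 fell in limma. Over all genes tested 1.24% rose and 0.885% fell. On the deposited scale 1 rose and 6 fell (1.43% and 1.53% of all genes tested). At an unadjusted p under 0.05, 4 of the 70 rose and 10 fell. CFLOG005198.2 fell from 18.0 and 26.4 to 4.14 and 0.815, a difference of −2.90 ± 0.49 (SE, limma adjusted p = 0.011, up to 0.19 across alternatives). CFLOG001335.1 fell from 5.37 and 8.34 to 1.33 and 0.106, a difference of −2.27 ± 0.35 (SE, limma adjusted p = 0.0076, up to 0.12).

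CFLOG005200.2 fell from 76.0 and 65.8 to 15.5 and 27.0, a difference of −1.74 ± 0.37 (SE, limma adjusted p = 0.031, up to 0.29). The number called was 0 without embryo replicate 2 or without instar 1 larva replicate 2, and 6 when the one or the other late pupa minor library was left out. In each of the 3 genes the embryo libraries lay above both instar 1 libraries.

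The male group is 1 library, so the SE and p of its comparison take their spread from the other groups, and the values describe this library and not males. Between the adults, 0 genes were higher and 2 lower in the single male library than in minors (4.82% higher and 6.7% lower of all genes tested). At an unadjusted p under 0.05, limma gave 2 higher and 4 lower. CFLOG025650.1 stood at 5.76 in the male and at 85.1 and 57.9 in minors, a difference of −3.40 ± 0.75 (SE, limma adjusted p = 0.018, up to 0.077 across alternatives). CFLOG005200.2 stood at 2.46 in the male and at 12.0 and 16.6 in minors, a difference of −2.13 ± 0.45 (SE, limma adjusted p = 0.014, up to 0.14). On the deposited scale neither gene was called, and 2 others were higher in the male and 0 lower (11.3% and 0.981% of all genes tested). These were CFLOG001819.2, at a rescaled 5.11 in the male and 0.402 and 1.4 in minors, and CFLOG027552.1, at 11.8 in the male and 5.3 and 4.7 in minors. Without minor replicate 2 the number called was 0, and without minor replicate 1 it was 6. With the direction of the calls changing with the scale, no difference between male and minors is taken from them.

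The choice of genes depended on the late pupa libraries. Chosen without late pupa minor replicate 1 the set held 111 genes, 64 of them among the 70, and without minor replicate 2 it held 44, with 42 shared. In the library left out, 59 of the 111 and 41 of the 44 stood at least 1.5 log2 units above the means of the other 6 groups. Leaving out major replicate 1 or 2 gave 76 and 65, of which 68 and 62 did so. The means of the other 6 groups had also chosen these genes, so only the late pupa side was left out. The library left out was scaled by factors from all 15 libraries, and the means by factors taken without it. No share over all genes is given beside these counts, and nothing is read from them.

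A gene length was recovered from the values for 66 of the 70, from 192 to 6552 nt with a median of 882, and 65 of these lengths are multiples of 3, as are 92.3% of all recovered CFLOG lengths. A comparison of length with other genes is void, because only 6816 of the 10305 CFLOG genes tested have one. The ID numbers of the 70 genes lay close together in part. Of the 70, 21 (30.0%) had the number next to that of another of the 70, in 3 runs of 3 and 6 runs of 2. Under the like rule this held for 10 of 51 early pupa genes (19.6%) and 14 of 154 minor genes (9.1%), as a description of sets of different size. The sources used here do not say whether numbers follow the order on the genome.

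Levels within a run lay closer together in some runs than in others, and the runs given here were chosen after their values were seen. CFLOG004599.2 and CFLOG004600.1 had late pupa means of 3962 and 2389, CFLOG006374.2 and CFLOG006375.2 had 28.2 and 13.6, and CFLOG008544.2 and CFLOG008545.2 had 80.8 and 191.8. Other runs were wider. CFLOG005198.2, CFLOG005199.2 and CFLOG005200.2 had late pupa means of 5181, 574.9 and 39372, and all 3 had embryo as the next highest group. CFLOG001819.2, CFLOG001820.2 and CFLOG001821.2 had 607.7, 3156 and 815.7, and their next highest groups were early pupa, minor and instar 1 larva. CFLOG027552.1 had 15877 and its neighbour CFLOG027553.1 had 9.5. Near-identical copies could not be looked up, and a value would be uncertain where the counting shared reads among copies.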

How the data were processed

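The authors deposited 1 table of RPKM values, as the labels call them, with 18979 genes and 15 libraries of whole-body poly(A) RNA. The submitters' processing notes name STAR 2.5.0b and DESeq2 and give neither a role. The genome build, annotation and way of counting: not given in the sources used here. All columns matched a sample (0 did not).

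Libraries were rescaled as the rule describes. Levels are rescaled RPKM, and differences are on the log2(value + 1) scale, which understates changes of low genes. Library divisors and gene lengths were recovered from the steps of 1 read in low values, checked on simulated data, and no count test was run. Tests used limma 3.58.1 in R 4.3.3 with 1 term per group over all 15 libraries, eBayes with a trend, two-sided p-values and Benjamini-Hochberg adjustment at 0.05. Genes entered if 2 or more libraries reached a rescaled RPKM of 1 (10619, all 70 members among them, as the rule makes them). The fit was also run on simulated data in which changes were planted only in genes of higher mean level. That run does not speak to genes near 0 in the groups compared, and no call here rests on it. The labels name no batch.

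Named genes are the 6 highest, the 3 with the largest margin, those nearest the thresholds, the extremes between castes, the 2 with the most signal in early pupa and in minor, and the 2 largest rises and falls per comparison. Others were named after their values were seen. Members, lists and tests were chosen with earlier results of these data known. Alternatives were the deposited scale, a pseudocount of 0.1, no filter, a replicate block, margins of 1 and 2 and leaving out each library except male.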

Additional observations from a re-analysis of the deposited data

How the results depend on the processing

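The number of genes chosen, 70, became 40 on the deposited RPKM scale, all of them among the 70, and 91 with a pseudocount of 0.1. It was 114 with a margin of 1, 48 with a margin of 2, and 44 to 111 when a library was left out. The median of late pupa major minus minor, 0.42, ran from −0.01 (without late pupa minor replicate 1) to 0.93 when a late pupa library was left out. For instar 1 larva minus embryo 3 calls became 7 on the deposited scale, 1 with no filter on low values, and 0 to 6 when a library was left out. For instar 4 minus instar 1 larva, 7 calls (4 rose, 3 fell) became 20 on the deposited scale (1 rose, 19 fell), 16 with a pseudocount of 0.1 (7 rose, 9 fell) and 1 with no filter (it fell). That count was 2 to 12 when a library was left out, and 4 without instar 1 larva replicate 2, all of which fell. On the deposited scale 49.7% of all genes tested fell in this comparison, against 2.68% after rescaling. For early pupa minus instar 4 larva 16 calls became 25 with a pseudocount of 0.1, 10 with no filter, and 9 to 23 when a library was left out. For minor minus early pupa 29 calls became 17 to 33 when a library was left out. For male minus minor the 2 calls, both lower in the male, became 2 on the deposited scale, both higher in the male, where 11.3% of all genes tested were higher. They became 1 with a pseudocount of 0.1, 1 with no filter, and 0 to 6 when a library was left out. In the comparisons, leaving out a library of a group not compared left each difference the same, so only its spread and p changed. The cause of the other changes was not tested.

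Among single genes named in the comparisons, 576 results under an alternative kept direction and call, 90 lost the call and 0 reversed. Leaving out a library of a group not compared, or dropping the filter, cannot change a difference, only its spread and p. The same holds for the replicate block in the comparisons without the male. The direction was fixed in advance under those settings, so these counts do not measure how firm the calls are. Over all genes tested, differences of replicate 2 minus replicate 1 were correlated over 0.1 in 4 of 21 pairs of groups, in a range of −0.36 to 0.23. This cannot decide whether libraries of the same number shared a colony or batch. Between late pupa minor and major, Pearson's r of these differences was 0.57 over the 70 genes. Without the 5 genes far higher in minor replicate 2 it was −0.55. With a replicate block the counts called were 3, 8, 14, 29 and 2 for the 5 comparisons in the order given here. Depth limits the low values: up to 35 of the 70 genes had under 10 reads in an instar 4 larva library, so a gene without a call there may still differ. So may a gene whose late pupa replicates lay far apart, since the spread was taken over all 15 libraries.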
